A study of Mus musculus with 16 samples.

Results

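The CaMKII family in the left ventricle was described from 4 genes, Camk2a, Camk2b, Camk2d and Camk2g, out of 56953 genes in the deposited count table, and from every splicing event that the authors' splicing tables assign to those genes. The genes were taken by symbol. The tables listed 41 such events of 44612 for P635L Ctr against WT Ctr, 36 of 44418 for P635L Tnpo3 against WT Ctr and 41 of 41025 for WT Tnpo3 against WT Ctr. Together these were 49 distinct events, 18 in Camk2g, 16 in Camk2d, 13 in Camk2b and 2 in Camk2a.

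RNA came from left ventricles of 16 Bl6J mice of both sexes, 4 to a group. P635L mice were homozygous for that RBM20 mutation, which lies in a splicing factor of muscle, and WT mice lacked it. Every animal, aged 4 weeks, was given 1e12 v.g. of AAV9 by tail vein and its heart was taken 12 weeks later, at 16 weeks. The vector delivered the cDNA of Tnpo3, a nuclear import receptor (WT Tnpo3 and P635L Tnpo3), or a Ctr construct, pCAG-iCre-T2A-eGFP, with a Cre recombinase and a green fluorescent protein (WT Ctr and P635L Ctr), so that no group was without virus and the Ctr groups carried genes of their own. The sex of single mice is not given in the labels.

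Library totals ran from 28493249 to 85922669 counts. The summed level of 5 ventricular cardiomyocyte markers was at least 44200 CPM in every library, where CPM is a gene's count scaled to the TMM-adjusted size of its library, and 4 of 5 neuron markers stayed under 1 CPM in every library. Tnpo3 itself lay between 41.6 and 49.4 CPM in WT Ctr, between 41.9 and 47.8 in P635L Ctr, between 231 and 507 in WT Tnpo3 and between 234 and 723 in P635L Tnpo3. These values went with the labels of the virus. A count of Rbm20 cannot check the P635L label, since a missense mutation leaves the transcript in place.

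CaMKII is a kinase that calcium-bound calmodulin switches on and that phosphorylates calcium-handling proteins and ion channels of the cardiomyocyte. Each holoenzyme is built from subunits made by the 4 genes. Camk2d and Camk2g are the forms known from heart, whereas Camk2a and Camk2b are best known from brain. The genes share a catalytic domain, a regulatory segment and an association domain, and alternative exons lie in the variable linker between the last pair. In Camk2d this linker decides between several known forms: an exon of 33 bases brings in a nuclear localization signal and gives the form called delta B, and an exon of 60 bases followed by one of 42 bases gives the form called delta A. Camk2d is a known splicing target of RBM20.

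The exons on which the splicing results turned are shown first. Their sequences were read from GENCODE M21 transcripts (build GRCm38) and matched to the deposited events, whose coordinates are in GRCm39, by the lengths of the exon and of both neighbouring introns. The 60-base exon of Camk2d lies at chr3:126805857-126805916 on the plus strand in GRCm38 and is coding throughout. In the first line below it is in capitals between the 12 bases before and the 12 bases after it in the spliced transcript, and the second line is the junction made when it is skipped.

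Camk2d 60-base exon included: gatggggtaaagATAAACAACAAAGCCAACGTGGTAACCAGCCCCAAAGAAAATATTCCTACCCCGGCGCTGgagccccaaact

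Camk2d 60-base exon skipped: gatggggtaaaggagccccaaact

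The 33-base exons of Camk2d (chr3:126802937-126802969, plus strand) and Camk2g (chr14:20747819-20747851, minus strand, both GRCm38) are shown as a pair because they occupy the same place in the linker of the 2 genes. Capitals mark the 26 of 33 bases that are identical between them. Both are coding throughout.

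Camk2d 33-base exon: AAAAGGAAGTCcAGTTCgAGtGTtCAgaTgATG

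Camk2g 33-base exon: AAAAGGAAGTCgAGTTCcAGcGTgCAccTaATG

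The first comparison asked whether the mutation goes with a change in CaMKII splicing under the control virus. The 60-base exon of Camk2d, counted with the 42-base exon after it, was nearly always skipped in WT Ctr and nearly always included in P635L Ctr. Inclusion was read from junction reads as the inclusion level, the length-corrected fraction of junction reads that include the exon. For this event (chr3:126599506-126599565 in GRCm39), the inclusion levels of the WT Ctr libraries were 0, 0.045, 0.061 and 0.071, and those of the P635L Ctr libraries were 1, 1, 1 and 0.831. The groups did not overlap, and a library had 4 to 44 junction reads in WT Ctr and 27 to 56 in P635L Ctr. The mean rose from 0.0443 ± 0.0314 to 0.958 ± 0.0845 (SD, n = 4 each), a difference of 0.913. The ratio of inclusion to skipping reads rose by 8.71 on the log2 scale (SE 1.18), with an adjusted p of 0.000236 from edgeR's quasi-likelihood test on junction reads. A two-sided exact permutation test of the inclusion levels gave p = 0.0286, the smallest that 4 against 4 libraries allow. Summed over the libraries of a group, 9 inclusion and 99 skipping reads stood behind the WT Ctr value, and 171 and 5 behind the P635L Ctr value.

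This was the only event among the 25 tested CaMKII events that was called in that comparison, where a call needs an adjusted p under 0.05 and a difference of at least 0.1. Over all 25400 events tested, 0.146% were called, 0.11% with higher and 0.0354% with lower inclusion. The call held when each library was left out in turn, with adjusted p-values from 5.95e-05 to 0.00157. The authors' deposited table gives this event an FDR of 0. By the authors' table, with an FDR under 0.05, a difference of at least 0.1 and at least 10 junction reads, 4 CaMKII events of 31 with that many reads were called for P635L Ctr against WT Ctr, beside 2.52% of all such events. These thresholds were set here, not by the authors. With them 2 of 26 were called for P635L Tnpo3 against WT Ctr, both of the 60-base exon, beside 2.12%. For WT Tnpo3 against WT Ctr 0 of 26 were called, beside 0.941%, and 1 had an FDR under 0.05. All 3 comparisons share the WT Ctr libraries.

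**Figure D1:**
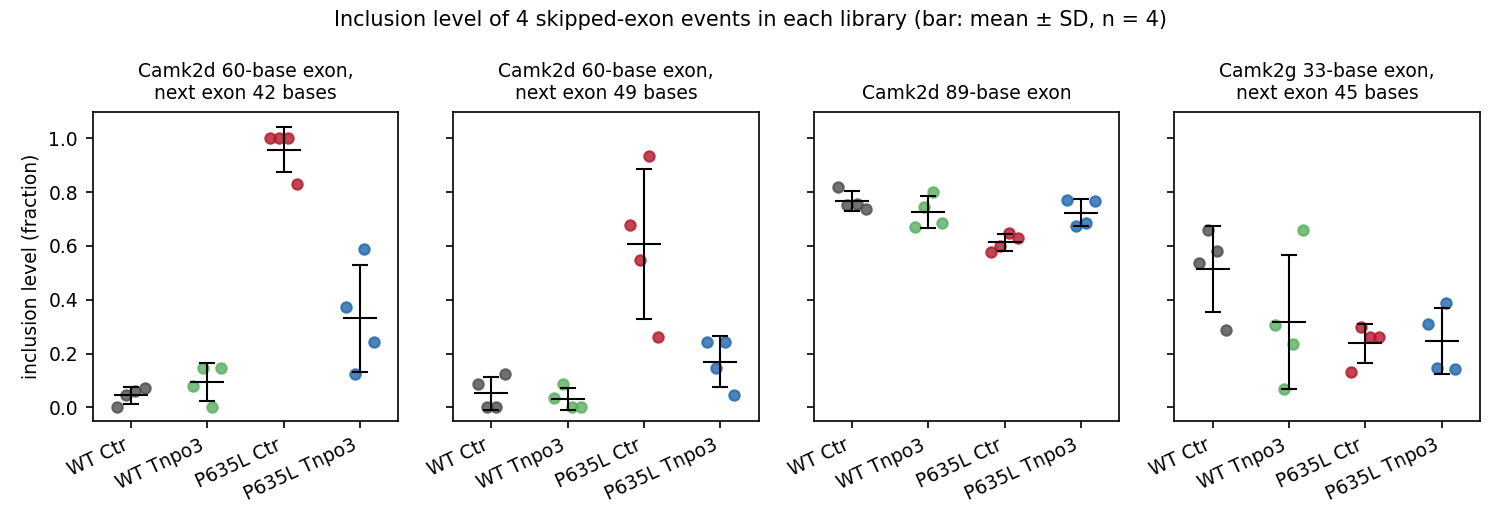
Inclusion level (fraction, y axis) of the 4 CaMKII events called in the junction test or in the authors' tables, by group (x axis), with 1 point per library and bars for mean ± SD (n = 4). In the first panel the P635L Ctr libraries sit at 0.831 or above and the WT Ctr libraries at 0.071 or below, with P635L Tnpo3 between them at 0.122 to 0.587.

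The second question was whether Tnpo3 virus changes this exon in mutant hearts. The inclusion levels in P635L Tnpo3 were 0.372, 0.122, 0.587 and 0.244, with a mean of 0.331 ± 0.199 (SD, n = 4). All 4 lay below the lowest P635L Ctr library and above the highest WT Ctr library. Over all events, groups did not overlap in 3.65% for P635L Tnpo3 against P635L Ctr and in 2.77% for P635L Tnpo3 against WT Ctr. Against P635L Ctr the difference in means was -0.626, and the ratio of inclusion to skipping reads differed by -5.72 on the log2 scale (SE 1.10). This did not pass the threshold: the adjusted p was 0.0512 in edgeR's test. The exact permutation test gave p = 0.0286. The event ranked 13th by p among the 25400 events, of which 0.0276% were called in this comparison.

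In counts simulated for P635L Ctr against WT Ctr the test recovered 6.57% of inclusion changes of 0.4 and 0% of those of 0.1 or 0.2. The overdispersion there was set at 0.03, not estimated from these events, and P635L Tnpo3 against P635L Ctr was not simulated. Limits on the mean inclusion level, which take out events that are nearly always included or skipped, were added after the value of 0.0512 had been seen. With limits of 0.02 to 0.98, 0.05 to 0.95 and 0.1 to 0.9 the adjusted p was 0.0152, 0.00597 and 0.00219. With limma it was 0.0826, and over all 22 alternatives it ran from 0.00219 to 0.292. It was 0.0462 without WT Tnpo3 listed position 3, 0.00774 without P635L Ctr listed position 4 and 0.0343 without P635L Tnpo3 listed position 3, where listed position is the place of a library within its group in the splicing tables.

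Between P635L Tnpo3 and WT Ctr the difference was 0.287, with an adjusted p of 0.724 and a permutation p of 0.0286 by the exact test, where 0.0236% of all events were called, 0.00787% with higher and 0.0157% with lower inclusion. The authors' deposited table gives the event an FDR of 0.000135, and it met the thresholds set here for that table. In wild-type hearts the exon was near its WT Ctr level under Tnpo3 virus, with inclusion levels of 0.081, 0.148, 0 and 0.146. The groups overlapped, and the difference of 0.0495 had an adjusted p of 0.788. The interaction, which asks whether the virus acts on the exon differently in the 2 genotypes, was -0.676 in inclusion level with an adjusted p of 0.386, and so was not called, beside 0.00787% of all events.

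The same 60-base exon was also measured where the 49-base exon follows it directly. There the levels were 0.085, 0, 0 and 0.122 in WT Ctr, and 0.678, 0.548, 0.934 and 0.263 in P635L Ctr. The groups again did not overlap, although the P635L Ctr libraries were far apart. The difference was 0.554 with an adjusted p of 0.219, beside an FDR of 2.59e-08 in the authors' deposited table. In P635L Tnpo3 the levels were 0.244, 0.146, 0.244 and 0.047, all below the P635L Ctr libraries, for a difference of -0.435 and an adjusted p of 0.753. Reads were fewer here, a mean of 11.8 per library in WT Ctr and 31.2 in P635L Ctr, and both events share the exon and the junction into it. They are not independent measurements.

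The 42-base exon, counted between the 38-base exon before it and the 49-base exon after it, had mean inclusion levels of 0.657 ± 0.0821 in WT Ctr, 0.482 ± 0.254 in WT Tnpo3, 0.674 ± 0.300 in P635L Ctr and 0.594 ± 0.0937 in P635L Tnpo3 (SD, n = 4 each). Its sequence, whose first 12 bases end the first line above, is given for completeness of this stretch of the linker.

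Camk2d 42-base exon: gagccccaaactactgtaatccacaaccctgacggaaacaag

 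In transcripts that held the 60-base exon, the 42-base exon was mostly kept as well: its inclusion level was 0.844 ± 0.172 in P635L Ctr and 0.905 ± 0.113 in P635L Tnpo3 (SD, n = 4 each). That event averaged 9.5 reads per library in WT Ctr and in WT Tnpo3, under the minimum of 10, and was not tested.

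The 33-base exon of Camk2d varied widely within groups. Its inclusion levels were 0.355, 0.49, 0 and 0.248 in WT Ctr and 0, 0.514, 0 and 0.026 in P635L Ctr, with overlapping groups. A second event set this exon against another exon as mutually exclusive choices. The reads of that other exon, 4 in WT Ctr, 4 in WT Tnpo3, 79 in P635L Ctr and 23 in P635L Tnpo3, equal the inclusion reads of the 60-base exon before the 49-base exon. In that event the 33-base exon had a level of 0.853 ± 0.148 in WT Ctr (n = 3), 0.134 ± 0.224 in P635L Ctr and 0.427 ± 0.291 in P635L Tnpo3 (SD, n = 4). The remaining WT Ctr library had no junction read, the mean there was 7.5 reads per library, the event was not tested, and the authors' deposited table gives it an FDR of 1.

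Near the 3′ end, the 89-base exon of Camk2d (chr3:126635134-126635222 in GRCm39), of which 64 bases are coding in the transcript that holds it, had the most reads of the named events, a mean of 169 per library in WT Ctr. Its levels were 0.821, 0.752, 0.755 and 0.737 in WT Ctr and 0.579, 0.598, 0.65 and 0.63 in P635L Ctr. The groups did not overlap. The difference was -0.152 with an adjusted p of 0.643, and the authors' deposited table gives an FDR of 7.27e-05. In P635L Tnpo3 the levels of 0.77, 0.676, 0.684 and 0.767 were all above P635L Ctr and overlapped WT Ctr. The difference from P635L Ctr was 0.11, with an adjusted p of 0.83.

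In Camk2g the 33-base exon (chr14:20797887-20797919 in GRCm39) had levels of 0.536, 0.658, 0.581 and 0.288 in WT Ctr and 0.133, 0.299, 0.263 and 0.26 in P635L Ctr. One WT Ctr library lay within the range of the mutant group. The difference was -0.277 with an adjusted p of 0.643, and the authors' deposited table gives an FDR of 0.0236. P635L Tnpo3 stood at 0.308, 0.148, 0.389 and 0.143, which overlapped P635L Ctr, with a difference of 0.00825. WT Tnpo3 spread from 0.067 to 0.658. Read depth was 23.3 junction reads per library in WT Ctr.

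Of the 25 tested CaMKII events, 17 differed by less than 0.1 between P635L Ctr and WT Ctr, and 5 had an unadjusted p under 0.05, beside 7.39% of all 25400 events. In 4 of the 25 events the groups did not overlap, beside 3.3% of all events, and these 4 include events that share an exon and reads. The fourth of them, beside the 3 Camk2d events above, was a retained intron of Camk2g. Its levels lay between 0 and 0.032 in WT Ctr and between 0.062 and 0.097 in P635L Ctr, a difference of 0.0745 with an adjusted p of 0.454. For WT Tnpo3 against WT Ctr none of the 25 events was called by edgeR, beside 0% of all events, none by limma, and 0 had an unadjusted p under 0.05, beside 3.69% of all events. For P635L Tnpo3 against P635L Ctr none was called by edgeR or limma, and 2 had an unadjusted p under 0.05, beside 6.04% of all events. Groups did not overlap in 4, beside 3.65% of all events: the 3 Camk2d events and a 114-base exon of Camk2g, at 0.19, 0.2, 0.202 and 0.249 in P635L Ctr and 0.111, 0.138, 0.151 and 0.143 in P635L Tnpo3 (adjusted p 0.866). The 2 Camk2a events had group means from 0.809 to 1. Of 13 Camk2b events only 1 was tested, the others having too few reads or not being listed in all 3 comparisons.

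**Figure D2:**
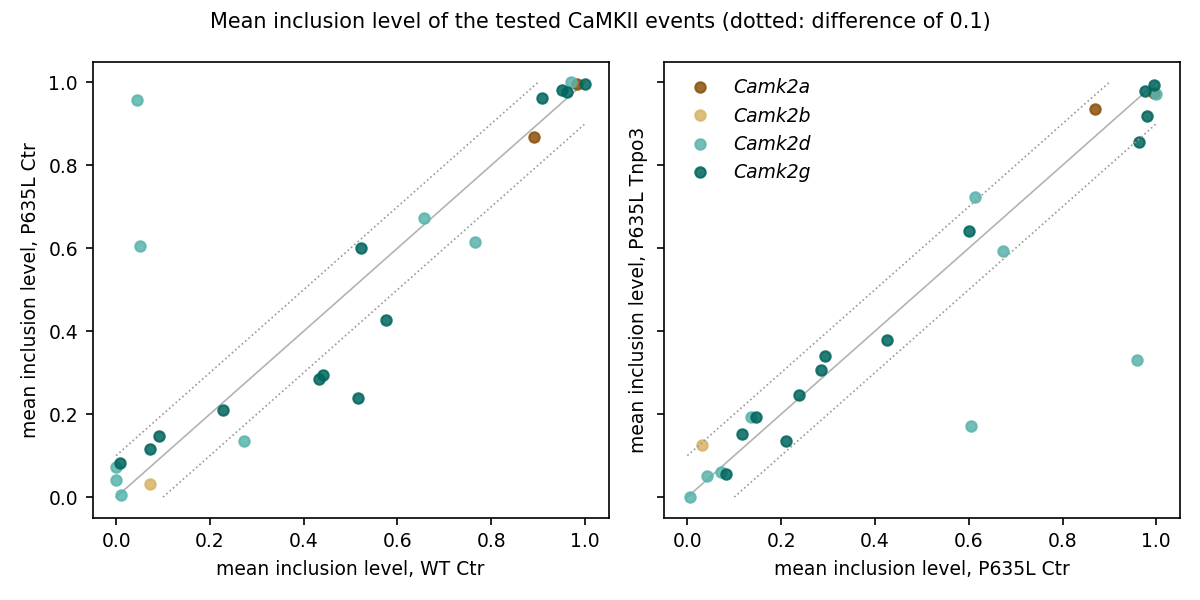
Mean inclusion level of the 25 tested CaMKII events in P635L Ctr against WT Ctr (left) and in P635L Tnpo3 against P635L Ctr (right), both axes as fractions, with 1 point per event coloured by gene and dotted lines at a difference of 0.1. The 2 Camk2d points far above the diagonal on the left, at 0.958 and 0.606 in P635L Ctr, are the 60-base exon in its 2 settings, and both lie far below it on the right.

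At the level of whole genes the 4 members lie, in GRCm39, at chr18:61058690-61121224 (Camk2a, ENSMUSG00000024617, plus strand), chr11:5919644-6016362 (Camk2b, ENSMUSG00000057897, minus strand), chr3:126389951-126639975 (Camk2d, ENSMUSG00000053819, plus strand) and chr14:20784943-20844156 (Camk2g, ENSMUSG00000021820, minus strand). All 4 passed the filter on low counts, with raw counts from 249 to 1811 for Camk2b, the lowest, and from 2241 to 8247 for Camk2d, the highest. Camk2b was the only member called, with levels of 12.7, 18.8, 15.2 and 12.7 CPM in WT Ctr and 24.9, 19.1, 20.1 and 23.2 CPM in P635L Ctr. Every P635L Ctr library was above every WT Ctr library, but the share of all genes with such a gap was not computed for any comparison. Camk2b rose 1.47-fold, by 0.56 on the log2 scale (SE 0.16), with an adjusted p of 0.0239 in edgeR's quasi-likelihood test, and the exact permutation p was 0.0286. In that comparison 14.2% of all 18662 genes tested were called, 7.07% of all genes higher and 7.14% lower, so that 1 called member of 4 is no result about the family. In bulk tissue, more cells of a type and more RNA per cell cannot be told apart.

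The Camk2b call depended on single libraries. The adjusted p was 0.0655 without WT Ctr replicate 1, 0.0692 without WT Ctr replicate 4, 0.0626 without P635L Ctr replicate 1 and 0.0653 without P635L Ctr replicate 4, while the log2 difference stayed between 0.49 and 0.71. The authors' deposited table gives Camk2b a log2 difference of 0.57 and an adjusted p of 0.00671. The summed level of 5 skeletal muscle markers moved with this group, from 1.16 to 1.80 CPM in WT Ctr, 9.80 to 12.8 in P635L Ctr and 2.67 to 6.24 in P635L Tnpo3. Of these markers Tnnt3 reached 12.3 CPM, and the other 4 (Myh1, Myh2, Myh4 and Actn3) stayed under 1 CPM in every library. Summed fibroblast markers were also higher, at 967 to 1420 CPM in P635L Ctr against 539 to 819 in WT Ctr. Summed ventricular cardiomyocyte markers were lower, at 44200 to 48600 CPM against 61300 to 72100. The part of these in the Camk2b level was not tested.

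Under Tnpo3 virus the P635L libraries had 17.6, 18.4, 16.6 and 18.2 CPM of Camk2b. All were below the P635L Ctr libraries, a gap whose share over all genes was not computed. The log2 difference of -0.30 (SE 0.16) from P635L Ctr had an adjusted p of 0.32 in edgeR's test. In a fit with only those 2 groups it was 0.049. Neither WT Tnpo3 against WT Ctr (-0.33, adjusted p 1.00) nor P635L Tnpo3 against WT Ctr (0.26, adjusted p 0.415) was called, the latter beside 3.07% of all genes, 1.49% higher and 1.58% lower. No member was called for the interaction, beside 0.504% of all genes (0.295% higher, 0.209% lower); Camk2b had 0.03 on the log2 scale (SE 0.22).

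Camk2g, also known from heart, was at 54, 48.1, 69.4 and 68.7 CPM in WT Ctr and 75.1, 72, 78 and 68 in P635L Ctr. The lowest mutant library lay within the WT range. The log2 difference was 0.29 (SE 0.12) with an adjusted p of 0.112. Without the 3 libraries with high Xist, 1 of WT Ctr and 2 of WT Tnpo3, it was 0.39 with an adjusted p of 0.0431. High Xist means more counts of Xist than of the Y-linked genes summed. No P635L library had it, so this mark was not spread evenly over the genotypes. The part of sex in the genotype differences was not tested. P635L Tnpo3 had 68.5, 63, 69.5 and 59.7 CPM, a log2 difference of -0.17 from P635L Ctr with an adjusted p of 0.479.

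Camk2d had no called difference in its total. It was at 81.1, 94.1, 103 and 93.9 CPM in WT Ctr, 85.7, 87.1, 107 and 75.3 in P635L Ctr, and 83.8, 85.8, 95.3 and 79.8 in P635L Tnpo3. The groups overlapped. The log2 difference between P635L Ctr and WT Ctr was -0.07, with a 95% interval from -0.33 to 0.19. Camk2a was also without a called difference, at 51.4 ± 13.8 CPM in WT Ctr, 50.4 ± 7.14 in WT Tnpo3, 45.1 ± 4.47 in P635L Ctr and 43.9 ± 7.58 in P635L Tnpo3 (SD, n = 4 each). For WT Tnpo3 against WT Ctr, where 0.00536% of all genes were called, and for P635L Tnpo3 against P635L Ctr, where 3.88% were (1.63% higher and 2.25% lower), no member was called by edgeR or DESeq2 and 0 had an unadjusted p under 0.05.

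**Figure D3:**
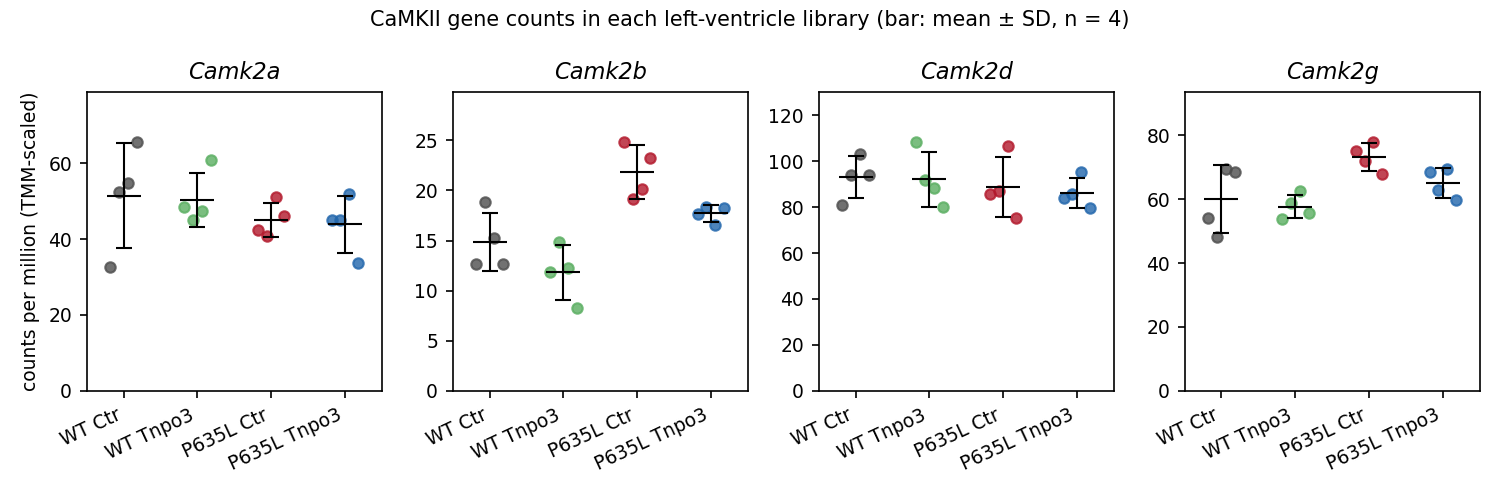
Level of the 4 CaMKII genes in CPM (y axis, from 0) by group (x axis), with 1 point per library and bars for mean ± SD (n = 4). In the Camk2b panel the libraries run from 19.1 to 24.9 CPM in P635L Ctr and from 12.7 to 18.8 in WT Ctr.

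Per length, Camk2g was the highest member. In WT Ctr it stood at 9.38 ± 1.67 CPM per kilobase, Camk2a at 6.89 ± 1.85, Camk2d at 4.14 ± 0.406 and Camk2b at 1.63 ± 0.319 (SD, n = 4 each). As shares of the sum over the 4 genes, Camk2g ran from 36.1% to 47.4% in WT Ctr, Camk2a from 24.5% to 35.1%, Camk2d from 16.6% to 20.3% and Camk2b from 5.53% to 9.92%, with no overlap between neighbours. The mean share of Camk2g was 42.7% ± 4.77 in WT Ctr and 48.1% ± 1.40 in P635L Ctr, Camk2a 30.9% ± 4.75 and 25.4% ± 1.67, Camk2d 19.0% ± 1.68 and 16.5% ± 1.51, and Camk2b 7.52% ± 1.85 and 10.1% ± 1.44. None of the 12 share comparisons passed, but 7 of them would have had to reach the smallest possible p of 0.0286 for any to pass, so this says little about whether the shares differ. The smallest two-sided exact permutation p was 0.0857, which was 0.257 after Benjamini-Hochberg adjustment over the 12. The place of Camk2d in this order rests on its length: the table gives it 22493 bases, the summed length of all its exons. With the longest coding transcript of each gene (5524 bases for Camk2d), a choice made after seeing the data, Camk2d made up 36.0% ± 2.31 in WT Ctr and Camk2g 34.4% ± 3.90. Camk2d also overlaps 7 annotated genes on its own strand and 1 on the other, counted over its whole span with introns. Whether any of them shares exon bases or reads with it was not tested.

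**Figure D4:**
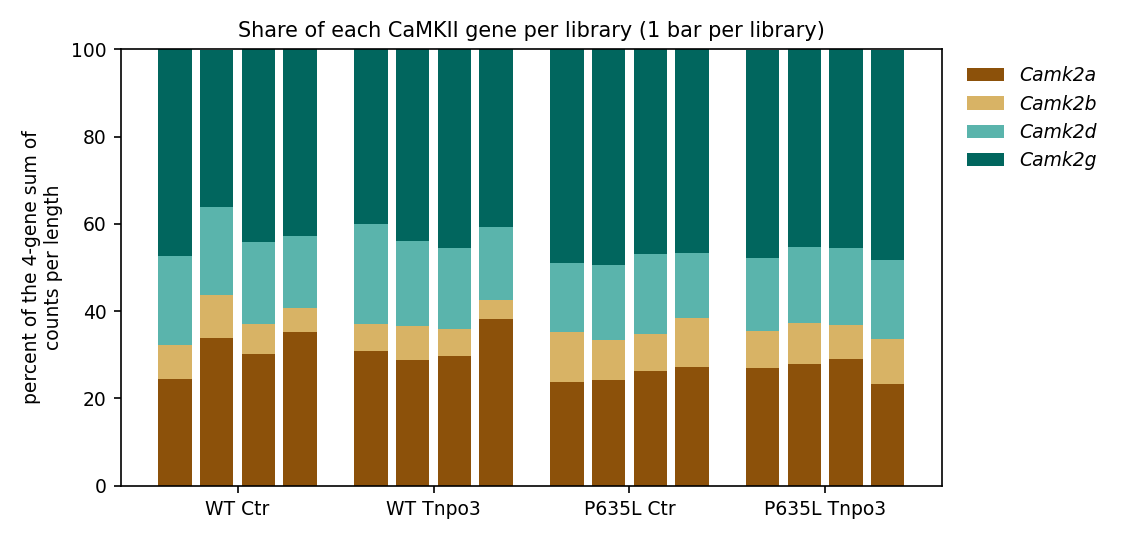
Share of each CaMKII gene in the 4-gene sum of counts per length (y axis, percent), with 1 stacked bar per library and the libraries grouped on the x axis. Camk2g is the largest part of every bar, and its mean share is 42.7% in WT Ctr and 48.1% in P635L Ctr.

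Other genes of CaMKII signalling were followed as a list of 46, of which 45 were tested. In P635L Ctr against WT Ctr 4 were called higher and 5 lower, 9 of 45 beside 14.2% of all genes, and the median log2 difference was -0.09 beside -0.05 over all genes. Of the related kinases, Camkk1, which activates other calmodulin-dependent kinases, rose from 3.41 ± 0.749 to 7.64 ± 2.39 CPM (SD, n = 4 each). Camk1g fell, but its level was 0.857 CPM in WT Ctr and 0.164 in P635L Ctr.

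Among phosphatases, Ppm1e, which removes activating phosphates from CaM kinases, had the largest rise of the list: 5.04 ± 0.378 CPM in WT Ctr and 32.3 ± 6.46 in P635L Ctr, 2.68 on the log2 scale (SE 0.21) with an adjusted p of 1.83e-07 in edgeR's test. It was the only gene of the list called in P635L Tnpo3 against P635L Ctr, 1 of 45 beside 3.88% of all genes, where it fell by 1.12 (SE 0.20, adjusted p 0.00372) to 14.9 ± 5.25 CPM. Ppp1r1a, an inhibitor of protein phosphatase, fell from 2.17 ± 0.858 to 0.575 ± 0.158 CPM under the mutation. In the calcineurin branch, the regulatory subunit gene Ppp3r1 fell from 46.2 ± 3.72 to 30.6 ± 3.73 CPM, and Rcan1, a calcineurin regulator, rose from 93.3 ± 37.6 to 170 ± 7.31 CPM.

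None of the 9 listed substrates, 3 MEF2 factors and 2 CaMKII inhibitor genes was called by edgeR in P635L Ctr against WT Ctr. Beside 14.2% of all genes called, such counts in short lists are no result about them. The median log2 difference of the substrates was -0.27, with 1 of 9 above 0, beside -0.05 over all genes. It was -0.15 for the MEF2 factors, with 0 of 3 above 0, and 0.11 for the inhibitor genes, with 1 of 2. Of 10 splicing factors, Rbfox1 fell from 18.5 ± 5.91 to 8.14 ± 1.17 CPM and Srsf2 rose from 77.8 ± 16.8 to 109 ± 7.73 CPM. In WT Tnpo3 against WT Ctr 0 of the 45 tested genes of the list were called, beside 0.00536% of all genes.

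The genes whose levels followed each member most closely over the 16 libraries, among 12489 compared, are given as a description. For Camk2g these were Ddx5 (Pearson r 0.95), Srsf5 (0.936) and Napb (0.934), and for Camk2a they were Magi3 (0.91) and Aak1 (0.907). Camk2b was followed by Hexim2 (0.887), Aldh1b1 (0.883) and Ptprn (0.876), and Camk2d, with the lowest values, by Arap2 (0.775), Atp11b (0.77) and Gpt2 (0.753). The libraries share group and depth with both genes of a pair. After the group means were taken out, r was 0.927 for Ddx5 with Camk2g and 0.703 for Hexim2 with Camk2b.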

How the data were processed

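Polyadenylated RNA was sequenced from stranded libraries, per the labels' protocols. The authors deposited raw counts per gene, and the submitters' processing notes name STAR 2.7.9a, featureCounts 2.0.6, DESeq2 and GRCm39. The authors' deposited tables also give log2 fold changes and p-values per gene and, in splicing tables with the columns of rMATS per the file headers, junction reads, inclusion levels and their difference as a score from -1 to 1. Strand use in counting is not given in the sources used here.

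Genes were tested with edgeR 4.0.16 (TMM, filterByExpr, quasi-likelihood) on all 16 libraries, and 18662 passed the filter. Events listed in all 3 tables whose junction reads averaged 10 or more in each group (25400, of which 25 were CaMKII events) were tested with edgeR on inclusion and skipping reads, with a term per library. P-values were adjusted by Benjamini-Hochberg over everything tested, with a threshold of 0.05. Alternatives used limma 3.58.1 and DESeq2 1.42.0. The exact permutation tests were two-sided.

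On simulated data (3 runs, overdispersion set at 0.03) the event test as designed recovered 6.57% of inclusion changes of 0.4, with 0 false calls of 13. With limits on the mean inclusion level of 0.02 to 0.98, 0.05 to 0.95 and 0.1 to 0.9 it recovered 59.1%, 76.8% and 86.9%, with 0 of 121, 5 of 169 and 13 of 221 calls false. The changed events were drawn only from those with a share of inclusion reads between 0.1 and 0.9. The limits therefore took out mainly unchanged events, and part of the gain in recovery was built in. No change larger than 0.4 was simulated. Limma with no limit recovered 57.6%, with 5 of 124 calls false. The designed test was kept as the reported one, because the limits were considered only after its calls were known. On simulated gene counts, 20.4% of 1.5-fold and 57.2% of 2-fold changes were recovered.

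The members and lists were chosen with earlier results of these data known. Named were the 4 members, signalling genes called in P635L Ctr against WT Ctr or P635L Tnpo3 against P635L Ctr, the 3 genes most correlated with each member, and every member event called in the junction test or the authors' tables. Some genes that this rule names are not reported here. The splicing tables do not say which library is which within a group. The chi-square per degree of freedom between libraries of a group was at least 17.9, so none was a repeat of another. Per the series design, 4 mice were sequenced in each group.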

Additional observations from a re-analysis of the deposited data

Results flagged for a closer look

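In P635L Ctr, 1 of the 4 libraries, at listed position 4, had an inclusion level of 0.831 for the Camk2d 60-base exon followed by the 42-base exon, while the other 3 were all at 1. It was picked out by Dixon's test for a value far from the rest of its group, which any gap from 3 identical values meets. Such a mark falls on about 1 group in 20 by chance.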

How the results depend on the processing

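Most values kept their direction and their side of the threshold: 934 of those with 1 library left out, where 44 changed sign, and 396 of those with another setting, where 17 did. Leaving out a library of a group outside a comparison cannot change its share or inclusion differences, so these counts overstate how stable the values are. The 60-base exon of Camk2d before the 42-base exon stayed called for P635L Ctr against WT Ctr under every alternative run, with adjusted p-values from 4.74e-06 to 0.00157. For P635L Tnpo3 against P635L Ctr its difference of -0.626 passed only under the 3 limits on inclusion level, added after seeing the data, and when 1 of 3 particular libraries was left out (range -0.712 to -0.557). The number of CaMKII events called there was then 1 with each limit and 0 to 1 with a library left out. Between limits of 0.1 and 0.9 the number for P635L Ctr against WT Ctr was 2, since the 60-base exon before the 49-base exon passed (0.554, adjusted p 0.0459). The limits use the mean over all 16 libraries, which the high P635L Ctr levels raise, so passing under them is no separate support. In the authors' table for P635L Tnpo3 the number was 1 at a difference of at least 0.2, and 1 with at least 20 junction reads.

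Camk2b for P635L Ctr against WT Ctr ran from 0.487 to 0.713 (log2) with a library left out, which left 0 to 1 genes called. In a fit of only the 2 groups it passed for P635L Tnpo3 against P635L Ctr (-0.302), with 1 gene called. Without the libraries with high Xist, Camk2g passed for P635L Ctr against WT Ctr (0.39), with 2 genes called. The cause of these changes was not tested.

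The other changes of sign were in values that the reported test did not call. The gene ENSMUSG00000119584 took 19.96% and 21.22% of counts in WT Ctr replicates 2 and 4, and 22.65% in WT Tnpo3 replicate 4. In no P635L library was it above 5.3%. For WT Tnpo3 against WT Ctr, Camk2a was 0.00156 without this gene before scaling, 0.133 without those 3 libraries and 0.0672 without high Xist. Camk2d was 0.00543 with median-ratio factors, 0.0144 with no filter, 0.0169 without that gene, 0.0967 without the 3 libraries, 0.111 without high Xist and 0.00533 with DESeq2. Camk2g was 0.0531 without high Xist, and its share 0.223 points. Without the 3 libraries Camk2a was 0.0761 for P635L Ctr and 0.0379 for P635L Tnpo3, both against WT Ctr. For the interaction, Camk2a was 0.00564 with upper-quartile factors, and Camk2b was -0.00725 with no filter, -0.00662 without that gene and -0.232 without the 3 libraries.

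With a library left out, the shares for WT Tnpo3 against WT Ctr ran from -1.1 to 2.42 points (Camk2a), -0.743 to 1.32 (Camk2d) and -2.23 to 1.53 (Camk2g). Log2 differences ran there from -0.193 to 0.111 (Camk2a), -0.1 to 0.0478 (Camk2d) and -0.124 to 0.0225 (Camk2g). For P635L Tnpo3 against P635L Ctr they ran from -0.13 to 0.0676 (Camk2a) and -0.113 to 0.0575 (Camk2d), and for P635L Ctr against WT Ctr from -0.169 to 0.00225 (Camk2d). For the interaction they ran from -0.152 to 0.152 (Camk2a), -0.133 to 0.136 (Camk2b) and -0.101 to 0.0702 (Camk2d). Inclusion differences ran from -0.0401 to 0.00242 for the 60-base exon before the 49-base exon (WT Tnpo3 against WT Ctr) and from -0.0391 to 0.0429 for the Camk2g 33-base exon (P635L Tnpo3 against P635L Ctr).

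The replicate numbers were not taken to pair the mice, since the labels give no shared origin. The correlations between libraries, after group means were taken out, do not decide whether libraries with the same number share an origin. Over 24 pairs with the same number r ran from -0.257 to 0.552 and 6 were over 0.1, over 72 pairs with other numbers it ran from -0.326 to 0.251 and 16 were over 0.1, and 7 of 16 libraries correlated best with their own number. With the replicate block Camk2b was 0.575 for P635L Ctr against WT Ctr and the number of genes called was 1. No paired analysis was possible for splicing events because the tables carry no replicate numbers. A library had as few as 4 reads for the 60-base exon before the 42-base exon. With events of at least 20 reads its adjusted p for P635L Tnpo3 against P635L Ctr was 0.0547.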
